A study of Mus musculus with 30 samples.

Results

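The effect of a protein kinase A (PKA) knockout on RNA was compared between mouse CD4 T cells treated with forskolin and mouse CD4 T cells activated through their antigen receptor. For each gene the log2 ratio of KO over WT was taken inside each count table, and the ratio of activated cells was subtracted from that of forskolin-treated cells. The 12 RNA libraries used are 3 each of forskolin-treated KO, forskolin-treated WT, activated KO and activated WT cells, out of 30 libraries in the series. Of 25763 gene symbols present in both tables, 12612 passed the filter on low counts over the 12 libraries and were tested, and 10559 of these passed it in each table alone. All cells began as naive CD4 T cells, sorted out of the spleens and lymph nodes of mice labelled PKA KO or WT. Forskolin-treated cells of both genotypes had been held in the cytokine IL-7 for 3 days and then received forskolin at 1 µg/mL for 4 h. Activated cells of both genotypes had been stimulated for 3 days by antibodies against CD3 and CD28. The labels give no strain, age, sex, PKA gene or means of deletion, and they leave unsaid whether replicates are different animals. The p-values therefore reflect the spread among these samples, which may be technical. They list no IL-7-rested cells without forskolin. The effects of forskolin, of the rest in IL-7 and of the absence of receptor stimulation therefore cannot be told apart in the difference between states.

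Forskolin activates adenylyl cyclase, which makes cyclic AMP. Cyclic AMP releases the catalytic subunits of PKA, which phosphorylate the transcription factor CREB and also restrain the SIK kinases, so that CRTC coactivators can enter the nucleus and join CREB at its binding element. In T cells this pathway is known to dampen receptor signalling and proliferation, and receptor signalling in turn induces many of the same immediate early genes through calcium and MAP kinases. Naive T cells survive in IL-7 through STAT5 and BCL2 without entering the cell cycle.

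Library totals were 9404642 to 11802115 counts in forskolin-treated KO, 7665955 to 9312606 in forskolin-treated WT, 10285730 to 11950488 in activated KO and 10536518 to 11202515 in activated WT cells, over rows with a gene symbol. Levels are given as TMM-scaled CPM, counts scaled to library size. The 2 states were deposited in separate tables, so a level in one state set beside a level in the other also carries any difference in how the tables were made. In bulk libraries, fewer cells of a type and less RNA per cell cannot be told apart. The 10 CD4 T cell markers summed to 4652 to 4854 CPM in forskolin-treated KO and 5060 to 5212 CPM in forskolin-treated WT libraries, and to 2841 to 2907 CPM in activated KO and 3133 to 3194 CPM in activated WT libraries. The 14 B cell markers summed to 328 to 339 CPM in forskolin-treated KO against 172 to 195 CPM in WT, and to 172 to 200 CPM in activated KO against 110 to 135 CPM in WT. Nearly all of this was Ighm, and the other 13 markers, Pax5 among them, summed to at most 14.3 CPM in any of these libraries. Their sum was also higher in KO without overlap, at 8.37 CPM or more in forskolin-treated KO against at most 7.08 CPM in WT. In activated cells it was 8.41 CPM or more in KO against at most 5.42 CPM in WT. Myeloid markers summed to at most 10.1 CPM. The 10 markers of CD8 T, NK and gamma delta T cells summed to 34.1 to 41.2 CPM in forskolin-treated KO and 28.4 to 34.3 CPM in WT, and to 21.9 to 50 CPM in activated KO and 20.6 to 66.1 CPM in WT. The 18 genes of dissociation and heat shock stress summed to 4673 to 4785 CPM in forskolin-treated KO and 4270 to 4626 CPM in WT, and to 12919 to 12998 CPM in activated KO and 13784 to 14311 CPM in WT. That sum was thus higher in KO with forskolin and lower in KO in activated cells, without overlap, which is the order of the larger group of opposite genes. The part of these cells and genes in the results was not tested. Replicate 1 of the activated WT group stood apart from replicates 2 and 3 (chi-square over degrees of freedom 9.05 and 9.99, against 1.62 between replicates 2 and 3). Replicate 1 of the activated KO group did so to a lesser extent (7.8 and 5.17, against 2.85).

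Prkaca, the gene of PKA catalytic subunit alpha, was low in every KO library. It stood at 3.86, 2.95 and 2.70 CPM in forskolin-treated KO libraries, against 32.5, 35.4 and 37.0 CPM in WT. Activated KO libraries held 0.909, 1.43 and 0.966 CPM, against 44.2, 55.6 and 50.3 CPM in WT. The groups did not overlap in either state, and the genotype effect was -3.45 ± 0.14 (log2, SE) with forskolin and -5.50 ± 0.16 in activated cells, a difference of 2.05 ± 0.25 (edgeR quasi-likelihood test, adjusted p = 5.67e-06). Prkacb, the catalytic subunit beta, was lower in forskolin-treated KO cells by a small amount (-0.17 ± 0.04, adjusted p = 0.00319) and stood at 0.03 ± 0.05 in activated cells. Its difference of -0.20 (adjusted p = 0.0266) lost its call without forskolin KO replicate 3, forskolin WT replicate 3, activated KO replicate 1 or activated WT replicate 1, with adjusted p up to 0.075. The call was lost too in edgeR fits with TMM over all 12 libraries (adjusted p = 0.088), no filter on low counts (0.0524) or all 18 RNA libraries (0.0803). DESeq2 did not call it either (adjusted p = 0.0726).

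The knockout changed many genes in each state, and most genes called in one state were not called in the other. In forskolin-treated cells 1774 of 12612 genes were lower in KO (14.1%) and 1954 higher (15.5%), 29.6% in all. In activated cells 1716 were lower (13.6%) and 1272 higher (10.1%), 23.7% in all. The test of the difference itself called 3049 genes (24.2%). It was below 0 for 1299 (10.3%) and above 0 for 1750 (13.9%), and at least 1 in size on the log2 scale for 228 of the first and 365 of the second kind. Genes called in both states numbered 1225, which is 32.9% of the forskolin calls and 41% of the activated calls. Of these, 622 had no called difference. A further 2046 genes (16.2% of tested genes) were called in 1 state only and had no called difference. For these 2046 genes the miss in the other state does not show that the 2 effects differ. Across all tested genes, which are not independent replicates, Pearson's r between the 2 effects was 0.15 and Spearman's rho 0.16. Over the 10559 genes past the filter in each table they were 0.28 and 0.18. With TMM scaling over all 12 libraries together the forskolin calls split into 1285 lower and 2367 higher. With upper-quartile scaling the activated calls split into 1278 lower and 1910 higher, and the differences into 1698 below and 1394 above 0.

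Genes were sorted by which tests they passed. Opposite genes were called in both states with opposite signs and with a called difference, and there were 329 of them (2.61% of tested genes). Of these, 210 were higher with forskolin and lower in activated KO cells, and 119 were lower with forskolin and higher in activated KO cells. Activated-restricted genes had a called difference and a call in activated cells only, and numbered 793 (443 lower and 350 higher in KO). Forskolin-restricted genes numbered 1325 (524 lower and 801 higher). A further 274 genes moved the same way in both states but by different amounts. Restricted here means that the effect missed the threshold in the other state while the difference passed, which does not show that the effect there was 0. With the replicate number as a block, opposite genes numbered 569, and 325 of the 329 were among them. In naive cells of the same study only 33 of the 12612 genes were called (0.262%), and 9 of these were among the 177 genes lower in both states by different amounts.

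**Figure D1:**
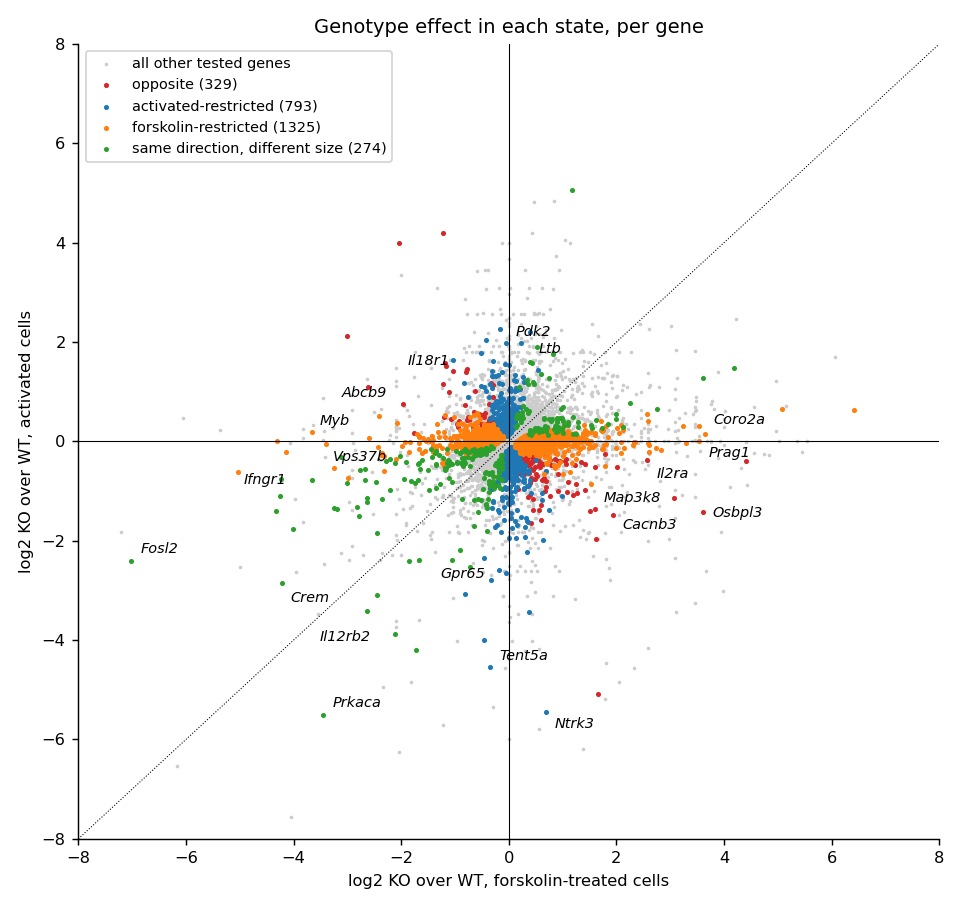
Genotype effect (log2 KO over WT) of each tested gene in forskolin-treated cells (x axis) and in activated cells (y axis), with opposite genes in red, activated-restricted genes in blue, forskolin-restricted genes in orange and genes with the same direction but a different size in green. Restricted genes lie along the axes, Osbpl3, Cacnb3 and Map3k8 lie in the lower right with effects of opposite sign, and Prkaca and Crem lie in the lower left.

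Among opposite genes that were higher in forskolin-treated KO cells and lower in activated KO cells, Osbpl3, which encodes an oxysterol-binding protein, had the largest difference of the 6 genes named. Its level was 8.56, 7.60 and 7.83 CPM in forskolin-treated KO libraries, against 0.655, 0.376 and 0.865 CPM in WT. The WT level of 0.376 CPM is near that of 3 counts in the library (0.372 CPM), so the size of the forskolin effect is uncertain. Activated KO libraries held 8.01, 6.98 and 7.54 CPM, against 16.7, 20.6 and 23.2 CPM in WT. WT libraries were thus below KO libraries in one state and above them in the other, without overlap. Genes named for their size of difference in the opposite and restricted classes had to show no overlap in the states called. For them its absence is set by the naming rule and is no further result. The effects were 3.61 ± 0.24 with forskolin and -1.42 ± 0.15 in activated cells, a difference of 5.04 ± 0.29 (adjusted p = 2.7e-10). Cacnb3, a regulatory beta subunit of voltage-gated calcium channels, followed the same order, at 27.0, 30.6 and 25.2 CPM in forskolin-treated KO against 7.47, 7.53 and 6.60 CPM in WT, and at 10.1, 8.41 and 9.37 CPM in activated KO against 27.0, 24.9 and 26.1 CPM in WT. Its difference was 3.42 ± 0.15 (adjusted p = 1.51e-11). Map3k8, a kinase upstream of ERK, moved by 1.60 ± 0.16 with forskolin and by -1.36 ± 0.11 in activated cells. Serpinb9, the inhibitor of granzyme B, moved by 0.59 ± 0.11 and by -1.58 ± 0.07.

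Il2ra and Cish belong to the same group and are targets of STAT5. Il2ra, the alpha chain of the IL-2 receptor, stood at 151, 120 and 149 CPM in forskolin-treated KO libraries, against 21.9, 23.0 and 25.6 CPM in WT. In activated cells, where the gene was high in both genotypes, it stood at 684, 631 and 634 CPM in KO against 932, 789 and 793 CPM in WT. The groups did not overlap in either state, which the naming rule asked for. The effect was 2.57 ± 0.11 with forskolin and -0.37 ± 0.09 in activated cells (adjusted p = 0.0131), and the activated call was lost without activated KO replicate 3 (-0.35, adjusted p = 0.0511). Cish, a feedback inhibitor of cytokine receptor signalling, stood at 35.3, 28.2 and 30.0 CPM in forskolin-treated KO against 11.5, 12.2 and 11.4 CPM in WT. Its activated level was 119, 99.0 and 109 CPM in KO against 244, 202 and 200 CPM in WT. Its difference was 2.40 ± 0.17 (adjusted p = 3.5e-07).

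The reverse order, lower in forskolin-treated KO cells and higher in activated KO cells, was led by Abcb9 and Il18r1. Abcb9, a lysosomal peptide transporter, stood at 16.3, 13.7 and 14.2 CPM in forskolin-treated KO against 59.1, 54.4 and 60.2 CPM in WT. Its activated level was 37.7, 34.6 and 30.8 CPM in KO against 24.1, 17.5 and 19.8 CPM in WT. The difference was -2.72 ± 0.15 (adjusted p = 2.57e-10). Il18r1, the ligand-binding chain of the IL-18 receptor, stood at 52.9, 49.9 and 63.6 CPM in forskolin-treated KO libraries against 101, 97.8 and 91.2 CPM in WT. Activated KO libraries held 22.1, 20.6 and 18.9 CPM against 7.85, 8.65 and 6.82 CPM in WT. No KO library overlapped a WT library of its state for either gene, which the naming rule asked for. Sytl1, an effector of RAB27 in vesicle traffic, moved by -0.82 ± 0.08 with forskolin and by 0.74 ± 0.10 in activated cells. Gimap1os, a transcript opposite the GTPase gene Gimap1, moved by -1.20 ± 0.10 and by 0.49 ± 0.11, and since strand use in counting is not stated in the sources used here, its reads cannot be told apart from those of Gimap1.

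Cenpa and Snx9 had weaker support in one state. Cenpa, the centromeric histone H3 variant, was lower in forskolin-treated KO cells (-1.76 ± 0.08, adjusted p = 1.33e-12), at 18.6, 20.3 and 19.5 CPM against 62.4, 69.7 and 65.4 CPM in WT. Its activated effect of 0.17 ± 0.06 (adjusted p = 0.0434) lost the call without any of 6 libraries, which were activated KO replicates 2 and 3, activated WT replicate 1, forskolin KO replicates 2 and 3 and forskolin WT replicate 3, with adjusted p up to 0.181. Snx9, a sorting nexin of endocytosis, moved by -1.07 ± 0.31 with forskolin and by 0.46 ± 0.14 in activated cells. One or both calls were lost without 8 of the 12 libraries, which were activated KO replicates 2 and 3, activated WT replicates 1 and 3, forskolin KO replicates 2 and 3 and forskolin WT replicates 1 and 2. Adjusted p then reached 0.14, and the difference kept its call in each case.

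**Figure D2:**
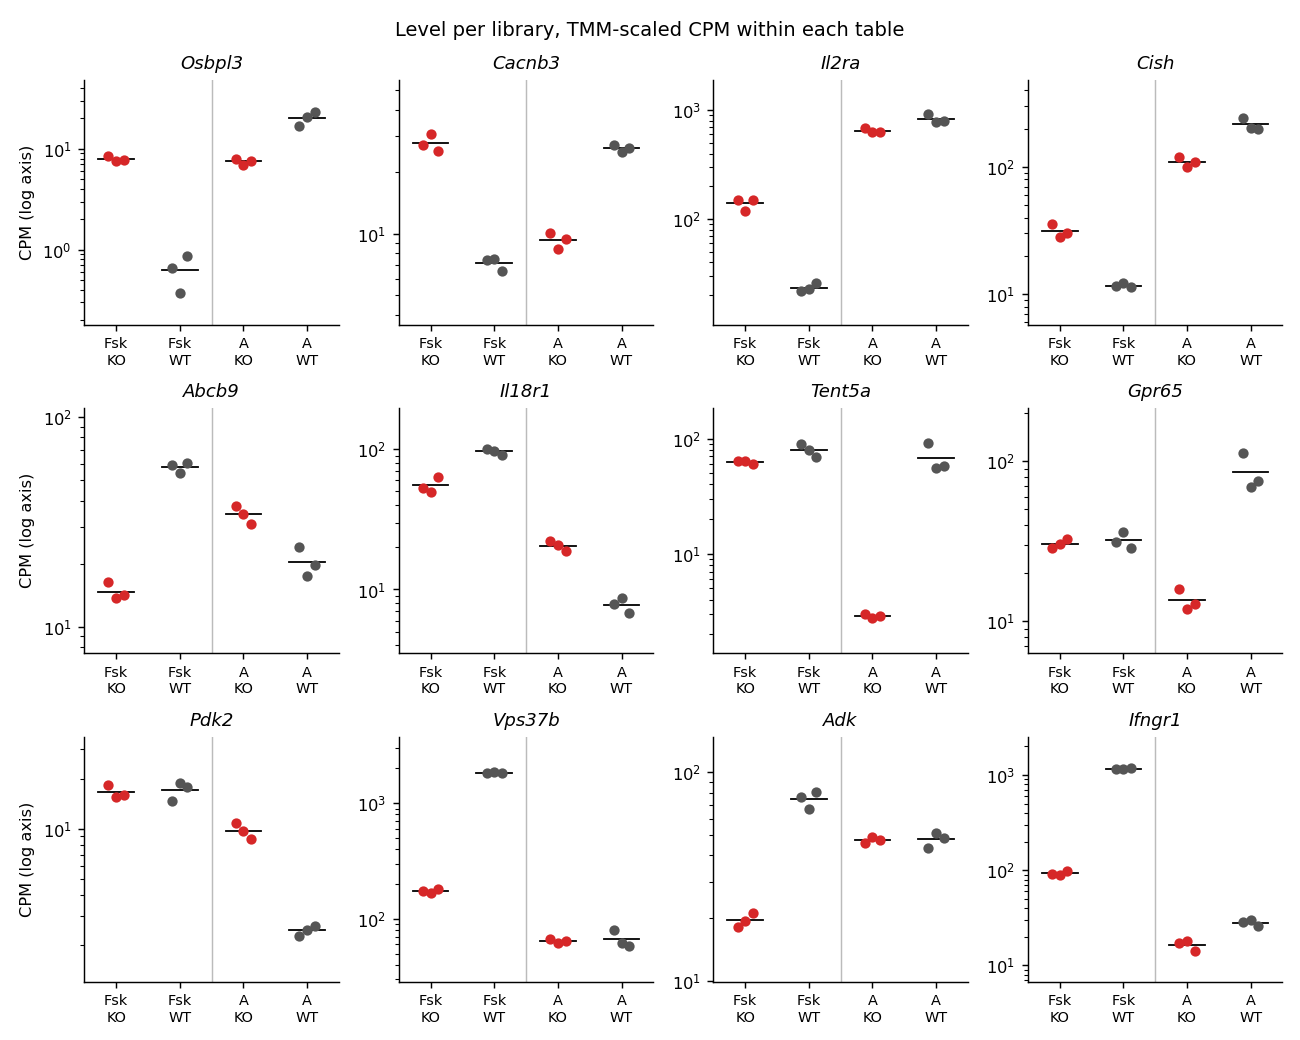
Level of 12 genes in each library (TMM-scaled CPM, log axis), with forskolin-treated (Fsk) KO and WT libraries left of activated (A) KO and WT libraries; points are libraries and bars are means of 3. Osbpl3, Cacnb3, Il2ra and Cish lie higher in forskolin-treated KO and lower in activated KO cells than in WT, Abcb9 and Il18r1 do the reverse, and Gpr65 and Pdk2 separate by genotype in activated cells only and Vps37b and Adk in forskolin-treated cells only, while Tent5a and Ifngr1 lie lower in KO libraries of both states.

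Activated-restricted genes that were lower in KO were led by Ntrk3 and Tent5a. Ntrk3, which encodes the neurotrophin receptor TrkC, stood at 4.19, 4.54 and 7.83 CPM in forskolin-treated KO and at 3.15, 3.39 and 3.68 CPM in WT. In activated KO libraries it stood at 0, 0.382 and 0.966 CPM, against 18.7, 16.9 and 21.6 CPM in WT. The level of 0.382 CPM is near that of 3 counts in the library (0.29 CPM), so the size of the activated effect is uncertain. The difference was 6.13 ± 0.62 (adjusted p = 1.67e-05), and without activated KO replicate 1 the forskolin effect of 0.69 passed as well (adjusted p = 0.0454). The forskolin effect passed too when the tables were fitted separately with edgeR (0.69, adjusted p = 0.0242). Under both settings Ntrk3 was an opposite gene, higher with forskolin and lower in activated KO cells. Tent5a, a non-canonical poly(A) polymerase, stood at 63.6, 63.5 and 60.4 CPM in forskolin-treated KO against 90.5, 78.9 and 69.6 CPM in WT. In activated cells it stood at 2.97, 2.77 and 2.90 CPM in KO against 90.6, 55.7 and 57.4 CPM in WT, an effect of -4.55 ± 0.25. Its forskolin effect of -0.35 missed the threshold (adjusted p = 0.171) but passed with the replicate block (-0.34, adjusted p = 6.58e-05) and without activated WT replicate 1 (adjusted p = 0.000807). Tent5a was thus lower in KO in both states under those settings, with a far larger effect in activated cells.

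Gpr65, a proton-sensing receptor that couples to Gs and so to adenylyl cyclase, was another of these. It stood at 28.9, 30.4 and 32.5 CPM in forskolin-treated KO and at 31.5, 35.9 and 28.7 CPM in WT, which overlapped. Activated KO libraries held 16.0, 12 and 12.8 CPM, against 113, 68.8 and 75.2 CPM in WT (-2.65 ± 0.20, adjusted p = 4.54e-06). Socs3, a feedback inhibitor of STAT3 signalling, stood at 0.01 ± 0.26 with forskolin and at -1.94 ± 0.34 in activated cells. Bhlhe40, a transcriptional regulator of cytokine production in T cells, stood at 0.06 ± 0.14 and at -1.75 ± 0.11. Anxa2, an annexin, had an activated effect of -2.22 ± 0.32 and a forskolin effect of 0.34 ± 0.36 (adjusted p = 0.536), which passed with the replicate block (0.33, adjusted p = 0.0117). Basp1, a membrane-attached signalling protein, had a difference of 1.88 ± 0.48 (adjusted p = 0.019), which lost its call with limma-voom (1.82, adjusted p = 0.188), with the replicate block (1.86, adjusted p = 0.0536) and without forskolin KO replicate 1 or 3 (adjusted p = 0.0684 and 0.0545). Without activated WT replicate 1 its forskolin effect of -0.47 passed (adjusted p = 0.034). Without activated WT replicate 1 the activated-restricted genes numbered 749 and the opposite genes 376.

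Activated-restricted genes that were higher in KO included Pdk2 and Ramp1. Pdk2, a kinase that inhibits pyruvate dehydrogenase, stood at 18.2, 15.6 and 15.9 CPM in forskolin-treated KO and at 14.7, 18.9 and 17.7 CPM in WT. The activated level was 10.8, 9.66 and 8.70 CPM in KO against 2.28, 2.47 and 2.61 CPM in WT (1.98 ± 0.16, adjusted p = 2.8e-08). Only the activated groups separated, and the naming rule asked for that separation. Ramp1, the partner protein of the receptor for calcitonin gene-related peptide, a Gs-coupled receptor, showed the same order, with -0.00 ± 0.13 with forskolin and 1.53 ± 0.17 in activated cells. Ift74, a protein of intraflagellar transport, stood at 40.0, 32.0 and 30.5 CPM in activated KO against 13.8, 14.5 and 13.0 CPM in WT. Pfn2, Frmd4a and Col27a1, which encode a profilin, a scaffold protein and a collagen chain, had activated effects of 1.32 ± 0.21, 1.16 ± 0.17 and 2.21 ± 0.23. Col27a1 passed in forskolin-treated cells as well with the replicate block (0.40, adjusted p = 0.0296) and without forskolin KO replicate 2 or forskolin WT replicate 3 (adjusted p = 0.0475 and 0.0286).

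Forskolin-restricted genes that were lower in KO included Vps37b and Myb. Vps37b, a subunit of the ESCRT-I sorting complex, stood at 173, 167 and 180 CPM in forskolin-treated KO against 1814, 1862 and 1819 CPM in WT. Activated libraries held 66.6, 62.1 and 63.7 CPM in KO and at 80.7, 62.2 and 57.8 CPM in WT, which overlapped. The difference was -3.34 ± 0.14 (adjusted p = 1.52e-08). Myb, a transcription factor of lymphocyte development and stem-like T cells, stood at 22.6, 30.3 and 16.3 CPM in forskolin-treated KO against 281, 313 and 268 CPM in WT. Its activated levels of 71.7, 77.4 and 78.6 CPM in KO and 45.5, 80.7 and 75.6 CPM in WT overlapped. The difference of -3.83 ± 0.34 (adjusted p = 6.49e-05) was the largest below 0 under the naming rule. Pmepa1, an inhibitor of TGF-beta signalling, had a forskolin effect of -2.59 ± 0.10, and Rnf125, a ubiquitin ligase of T cells, one of -2.43 ± 0.08. Their activated effects were 0.06 ± 0.10 and -0.11 ± 0.10.

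Adk and Odc1 encode metabolic enzymes of this group. Adk, adenosine kinase, which clears adenosine inside the cell, stood at 18.2, 19.5 and 21.2 CPM in forskolin-treated KO against 76.4, 66.9 and 80.9 CPM in WT. Activated libraries held 46.1, 49.2 and 47.4 CPM in KO and 43.4, 51.4 and 48.7 CPM in WT. Only the forskolin groups separated, and the naming rule asked for that separation. Odc1, the first enzyme of polyamine synthesis, stood at 56.7, 51.4 and 53.7 CPM in forskolin-treated KO against 278, 317 and 236 CPM in WT. Its activated effect of -0.23 ± 0.13 missed the threshold (adjusted p = 0.246) and passed with the replicate block (adjusted p = 0.0256).

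Forskolin-restricted genes that were higher in KO included Cdk6 and Prag1. Cdk6, a cyclin-dependent kinase of the G1 phase, stood at 45.1, 38.0 and 51.7 CPM in forskolin-treated KO against 7.73, 5.52 and 8.87 CPM in WT. Its activated levels of 25.0, 22.5 and 24.1 CPM in KO lay just under the 29.0, 27.4 and 26.1 CPM of WT, without passing the test (-0.21, adjusted p = 0.241). Prag1, a pseudokinase, had a forskolin effect of 3.54 ± 0.15, Fsd1l one of 2.82 ± 0.27 and Gvin2, an interferon-induced very large GTPase, one of 3.29 ± 0.26. Coro2a, a coronin of the actin cytoskeleton, had a difference of 3.5 ± 0.60 (adjusted p = 0.00317), which missed the threshold with limma-voom (adjusted p = 0.0582).

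Many CREB targets were lower in KO cells of both states, and several of them differed in size. Of 34 tested genes on the list of cyclic AMP and CREB targets, 19 were lower and 3 higher with forskolin, and 25 were lower and 4 higher in activated cells. The median effect was -0.44 with forskolin and -1.01 in activated cells, against 0.00 and 0.01 over all tested genes. The difference was below 0 for 11 and above 0 for 8 of them, beside 10.3% and 13.9% of all tested genes. Lower and higher calls made up 14.1% and 15.5% of all tested genes with forskolin, and 13.6% and 10.1% in activated cells. Over the 27 genes that passed the filter on low counts in each table alone, the medians were -0.82 with forskolin and -0.81 in activated cells, so the gap between the medians rests on genes that were low in one state. Crem, a CREB-family gene that CREB induces, stood at 12.5, 12.5 and 13.7 CPM in forskolin-treated KO against 225, 265 and 230 CPM in WT. Activated libraries held 9.83, 7.74 and 7.83 CPM in KO against 68.6, 59.1 and 57.6 CPM in WT. The groups did not overlap in either state, and the effect was larger with forskolin (-4.22 ± 0.09 against -2.86 ± 0.10, difference -1.36 ± 0.15, adjusted p = 5.14e-06).

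The nuclear receptor genes Nr4a1 and Nr4a3 are immediate early genes of receptor and cyclic AMP signalling. Nr4a3 stood at 1.26, 1.27 and 0.720 CPM in forskolin-treated KO against 16.4, 21.2 and 15.4 CPM in WT, and at 88.0, 92.7 and 87.5 CPM in activated KO against 280, 304 and 326 CPM in WT. Nr4a1 stood at 1.51, 1.27 and 2.34 CPM in forskolin-treated KO against 10.6, 14.0 and 11.4 CPM in WT, and at 229, 245 and 254 CPM in activated KO against 605, 738 and 733 CPM in WT. Both were thus lower in every KO library, at quite different levels in the 2 states. The difference was -2.25 ± 0.24 for Nr4a3 (adjusted p = 3.92e-06) and -1.28 ± 0.27 for Nr4a1 (adjusted p = 0.00582), the second of which missed the threshold with limma-voom (adjusted p = 0.0972). Sik1, a kinase that phosphorylates CRTC coactivators and is itself a CREB target, had effects of -3.19 ± 0.08 and -1.37 ± 0.06. Dusp10, a phosphatase of p38 and JNK, had effects of -2.67 ± 0.07 and -0.55 ± 0.10. Fosl2, an AP-1 factor named after its values were seen, stood at 10.7, 4.33 and 2.88 CPM in forskolin-treated KO against 790, 839 and 774 CPM in WT, and at 17.0, 18.7 and 18.6 CPM in activated KO against 108, 92.7 and 87.0 CPM in WT (difference -4.62 ± 0.39, adjusted p = 4.92e-05).

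CREB binds the palindrome TGACGTCA, or its core TGACG, which reads CGTCA on the other strand. The sequences below are promoters of genes described here that hold such a match, from 250 bases before to 50 bases after the RefSeq gene start (GRCm38.p6), 5′ to 3′ on the gene's strand, with every match in capitals. Among 32851 mouse promoters of this length in the RefSeq table, 20.8% held TGACG on either strand and 1.79% held the full palindrome. The printed promoters were chosen for a match and do not stand for all genes described here. Some others hold a match that is not printed, such as Pdk2, Odc1 and Cdk6. Pde4d, Myb, Dusp10, Ifngr1, Il18r1 and Gpr65 are among those that hold none. Nr4a1 and Nr4a3 held 4 matches to TGACG each. Prkar1a, the type I alpha regulatory subunit of PKA, has 6 promoters in the table and Adk has 2, and 1 of each is printed, picked for its matches. That of Prkar1a held the full palindrome, and the gene was lower in KO in both states (-0.67 ± 0.04 with forskolin and -0.31 ± 0.04 in activated cells). Il12rb2 was lower in both states with the larger effect in activated cells, Osbpl3 was opposite and Adk was forskolin-restricted. Only 9743 of the 12612 tested genes (77.3%) matched the table, so a comparison of motif shares between the gene classes was void and is not given. A match is a description of letters and not of binding.
Nr4a1, chr15:101266596-101266895, plus strand: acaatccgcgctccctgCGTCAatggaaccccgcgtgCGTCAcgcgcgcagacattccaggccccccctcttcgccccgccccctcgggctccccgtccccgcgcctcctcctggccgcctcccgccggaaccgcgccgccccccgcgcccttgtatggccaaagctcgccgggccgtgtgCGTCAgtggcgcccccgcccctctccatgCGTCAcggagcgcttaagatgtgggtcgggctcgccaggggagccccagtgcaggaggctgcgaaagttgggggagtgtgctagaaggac
Nr4a3, chr4:48045055-48045354, plus strand: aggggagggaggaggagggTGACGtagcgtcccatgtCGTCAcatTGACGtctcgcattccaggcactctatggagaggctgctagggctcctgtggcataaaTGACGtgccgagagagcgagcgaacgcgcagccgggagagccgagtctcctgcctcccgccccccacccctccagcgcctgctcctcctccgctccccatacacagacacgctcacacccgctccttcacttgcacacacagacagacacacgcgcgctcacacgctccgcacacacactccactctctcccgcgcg
Prkar1a, chr11:109650699-109650998, plus strand: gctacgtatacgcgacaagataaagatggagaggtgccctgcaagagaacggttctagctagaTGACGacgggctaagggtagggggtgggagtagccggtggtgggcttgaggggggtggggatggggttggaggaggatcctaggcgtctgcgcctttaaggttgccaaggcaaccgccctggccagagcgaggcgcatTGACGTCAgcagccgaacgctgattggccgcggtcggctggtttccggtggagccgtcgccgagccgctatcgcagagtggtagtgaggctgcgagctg
Il12rb2, chr6:67376139-67376438, minus strand: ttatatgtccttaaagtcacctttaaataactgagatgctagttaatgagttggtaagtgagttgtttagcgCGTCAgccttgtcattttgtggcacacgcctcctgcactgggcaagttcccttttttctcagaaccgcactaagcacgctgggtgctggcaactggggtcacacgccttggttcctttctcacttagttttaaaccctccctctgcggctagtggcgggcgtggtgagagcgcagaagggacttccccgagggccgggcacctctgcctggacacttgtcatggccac
Osbpl3, chr6:50456121-50456420, minus strand: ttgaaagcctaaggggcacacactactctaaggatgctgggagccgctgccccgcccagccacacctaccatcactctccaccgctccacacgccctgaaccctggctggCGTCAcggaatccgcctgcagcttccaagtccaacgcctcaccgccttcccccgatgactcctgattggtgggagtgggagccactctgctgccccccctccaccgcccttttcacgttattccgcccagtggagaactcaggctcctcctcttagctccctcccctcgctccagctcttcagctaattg
Adk, chr14:21052324-21052623, plus strand: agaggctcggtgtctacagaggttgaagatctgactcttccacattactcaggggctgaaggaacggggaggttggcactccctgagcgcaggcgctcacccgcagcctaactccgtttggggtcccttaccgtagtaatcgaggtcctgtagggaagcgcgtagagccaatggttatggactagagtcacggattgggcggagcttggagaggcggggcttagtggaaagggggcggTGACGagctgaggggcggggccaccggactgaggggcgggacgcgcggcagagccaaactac

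Pde4d and Pde3b, phosphodiesterases that break down cyclic AMP, were lower in KO cells of both states, with the larger effect in activated cells. Pde4d stood at 99.0, 102 and 105 CPM in forskolin-treated KO against 634, 652 and 617 CPM in WT, and at 6.61, 5.93 and 6.76 CPM in activated KO against 68.0, 68.2 and 71.1 CPM in WT. The effects were -2.64 ± 0.04 and -3.42 ± 0.06 (difference 0.78 ± 0.08, adjusted p = 5.26e-07). Pde3b had effects of -2.45 ± 0.06 and -3.10 ± 0.08. Pde7a was lower with forskolin (-0.84 ± 0.07) and stood at -0.08 ± 0.06 in activated cells. Of 13 tested phosphodiesterases, 6 were lower and 1 higher with forskolin, and 4 were lower and 1 higher in activated cells. Among all tested genes 14.1% were lower and 15.5% higher with forskolin, and 13.6% lower and 10.1% higher in activated cells.

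Some genes that raise cyclic AMP were higher in forskolin-treated KO cells and lower in activated KO cells. Of 12 tested adenylyl cyclase and Gs-coupled receptor genes, 6 were higher with forskolin, while 6 were lower and 3 higher in activated cells, and 4 were opposite genes. The difference was above 0 for 6, beside 13.9% of all tested genes. Among all tested genes 15.5% were higher with forskolin, 13.6% lower and 10.1% higher in activated cells, and 2.61% opposite. Adcy6, an adenylyl cyclase, stood at 147, 139 and 154 CPM in forskolin-treated KO against 110, 105 and 116 CPM in WT, and at 19.2, 17.0 and 17.7 CPM in activated KO against 55.1, 54.7 and 59.3 CPM in WT. The genotype order thus turned between states without overlap (difference 2.06 ± 0.09, adjusted p = 8e-12). Adora2a, a Gs-coupled adenosine receptor, moved by 0.51 ± 0.08 with forskolin and by -0.66 ± 0.07 in activated cells. With upper-quartile scaling 3 of the 12 genes were opposite and the difference was below 0 for 1.

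**Figure D3:**
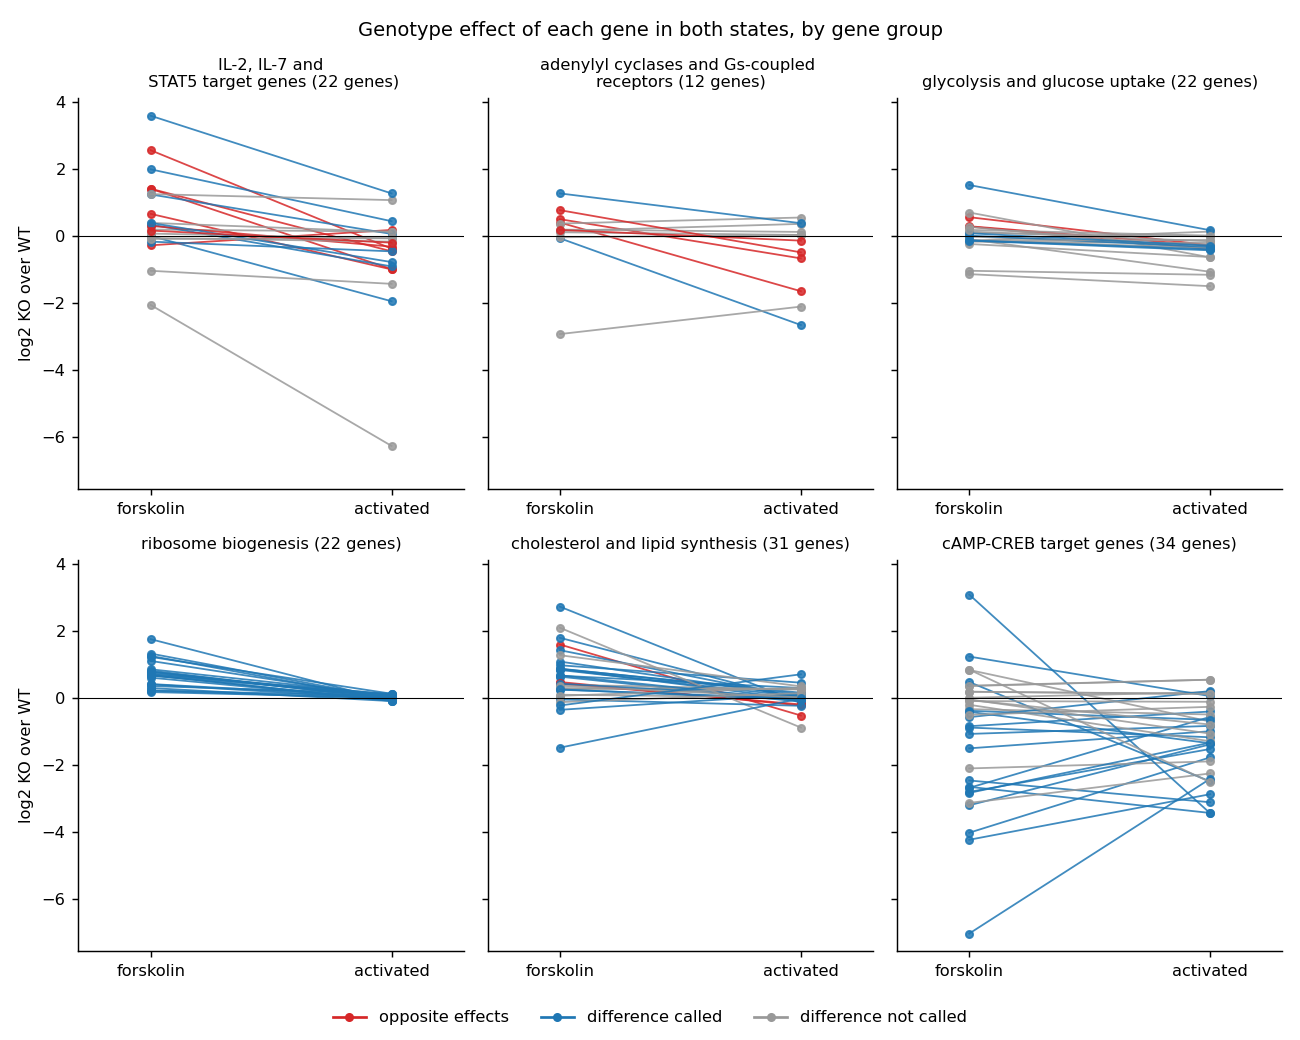
Genotype effect (log2 KO over WT) of each tested gene of 6 groups in forskolin-treated cells (left points) and in activated cells (right points), joined by a line that is red for opposite effects, blue for another called difference and grey otherwise; a gene with 0 counts in a group, such as Areg, is drawn at its fitted value, which is no bound. Ribosome biogenesis genes lie above 0 with forskolin and near 0 in activated cells, and many CREB targets lie below 0 in both.

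Targets of IL-2, IL-7 and STAT5 moved up with forskolin and down in activated cells in several cases. Of 22 tested, 11 were higher and 2 lower in forskolin-treated KO cells, whereas in the activated state 13 fell and 5 rose in KO. The difference was above 0 for 13 and below 0 for 1, with a median of 0.89 against 0.00 over all tested genes, and 7 were opposite genes, or 5 with upper-quartile scaling. Over all tested genes 15.5% were higher and 14.1% lower with forskolin, and 13.6% lower and 10.1% higher in activated cells. The difference was above 0 for 13.9% of them and below 0 for 10.3%, and 2.61% were opposite. Beside Il2ra and Cish, Myc, the transcription factor of growth, stood at 102, 85.5 and 111 CPM in forskolin-treated KO against 36.7, 32.6 and 42.3 CPM in WT, and at 409, 385 and 399 CPM in activated KO against 585, 526 and 521 CPM in WT. Its effects were 1.42 ± 0.11 and -0.45 ± 0.09. Osm, a cytokine of the IL-6 family, moved by 0.67 ± 0.14 and by -0.99 ± 0.14. Pim2, a survival kinase, was higher in both states, by 2.0 ± 0.06 with forskolin and 0.45 ± 0.05 in activated cells. Il4ra, the IL-4 receptor alpha chain, went the other way, by -0.27 ± 0.05 with forskolin and 0.19 ± 0.05 in activated cells, and the activated call was lost in the fit of all 18 RNA libraries (adjusted p = 0.0771).

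Ribosome biogenesis genes were higher in forskolin-treated KO cells as a group. All 22 tested members were higher with forskolin and had a called difference above 0, 3 were higher in activated cells, and 19 were forskolin-restricted. The shares over all tested genes were 15.5%, 13.9%, 10.1% and 10.5%, in that order. The median effect was 0.71 with forskolin and 0.01 in activated cells. With upper-quartile scaling 18 had a called difference. Rrp12, a factor of ribosome export, stood at 42.9, 43.0 and 47.6 CPM in forskolin-treated KO against 14.7, 12.3 and 12.2 CPM in WT, and at 147, 149 and 147 CPM in activated KO and 147, 160 and 163 CPM in WT. Polr1b, the second largest subunit of RNA polymerase I, had effects of 1.34 ± 0.07 and -0.01 ± 0.05. Nop58, a protein of box C/D small nucleolar ribonucleoproteins, had effects of 0.87 ± 0.04 and 0.10 ± 0.04, the second of which passed with the replicate block (adjusted p = 0.0341), with upper-quartile scaling (0.15, adjusted p = 0.00605) and without activated WT replicate 1 (0.11, adjusted p = 0.0499).

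Cholesterol and lipid synthesis followed a like order. Of 31 tested genes, 21 were higher and 2 lower with forskolin, 6 were higher and 4 lower in activated cells, and 15 were forskolin-restricted. The difference was above 0 for 19 and below 0 for 3, with a median of 0.52. Over all tested genes 15.5% were higher and 14.1% lower with forskolin, and 10.1% higher and 13.6% lower in activated cells. Forskolin-restricted genes made up 10.5% of them and opposite genes 2.61%, and differences above and below 0 made up 13.9% and 10.3%. Sqle, squalene epoxidase, stood at 48.4, 39.6 and 41.3 CPM in forskolin-treated KO against 14.0, 13.8 and 9.52 CPM in WT, and at 195, 191 and 193 CPM in activated KO and 202, 198 and 198 CPM in WT (difference 1.86 ± 0.13, adjusted p = 3.07e-08). Idi1, an isomerase of the mevalonate pathway, was an opposite gene, moving by 1.61 ± 0.12 with forskolin and by -0.51 ± 0.06 in activated cells. It was 1 of 3 opposite genes on this list, or of 7 with the replicate block.

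Glycolysis genes were lower in activated KO cells without being lower as a group with forskolin. Of 22 tested, 15 were lower in activated cells, while 5 were higher and 4 lower with forskolin. The difference was above 0 for 8, or for 14 with the replicate block. Among all tested genes 13.6% were lower in activated cells, 15.5% higher and 14.1% lower with forskolin, and 13.9% had a difference above 0. Eno1, enolase, stood at 487, 437 and 451 CPM in forskolin-treated KO against 327, 298 and 303 CPM in WT, and at 2464, 2235 and 2336 CPM in activated KO against 3014, 2739 and 2721 CPM in WT. Its difference was 0.84 ± 0.07 (adjusted p = 3.58e-07). Pgk1, phosphoglycerate kinase, moved by 0.30 ± 0.06 and by -0.28 ± 0.06. Both genes have processed copies in the mouse genome, and how shared reads were counted is not given in the sources used here.

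Cell cycle genes passed the test in a minority of cases. Of 34 tested, 8 were higher and 4 lower with forskolin and 5 were higher in activated cells, beside 15.5%, 14.1% and 10.1% of all tested genes. E2f2, a transcription factor of S phase entry, stood at 22.3, 25.0 and 27.9 CPM in forskolin-treated KO against 8.39, 8.40 and 9.30 CPM in WT, and at -0.12 ± 0.07 (log2 effect) in activated cells. The summed level of the 34 genes was 1038 to 1070 CPM in forskolin-treated KO and 1051 to 1061 CPM in WT, and 8377 to 8874 CPM in activated KO and 8291 to 8710 CPM in WT, so that it overlapped between genotypes in both states.

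Genes of IL-12 and IL-18 signalling and of the Th1 programme differed gene by gene. Il12rb2, the signalling chain of the IL-12 receptor, stood at 2.52, 3.06 and 2.16 CPM in forskolin-treated KO against 10.4, 12.5 and 10.4 CPM in WT, and at 5.70, 5.35 and 5.51 CPM in activated KO against 117, 62.0 and 65.5 CPM in WT. It was lower in every KO library, by -2.11 ± 0.36 and -3.88 ± 0.27. The difference of 1.77 ± 0.49 (adjusted p = 0.0282) was lost without activated KO replicate 1, 2 or 3, forskolin KO replicate 1 or 2 or forskolin WT replicate 1 (adjusted p 0.053 to 0.0935) and with limma-voom (adjusted p = 0.265), where the forskolin effect also missed the threshold (-2.11, adjusted p = 0.0935). Il12rb1, the chain shared with the IL-23 receptor, stood at 3.61, 3.27 and 1.98 CPM in forskolin-treated KO against 0.524, 0.251 and 0.649 CPM in WT, and overlapped in activated cells at 254, 229 and 214 CPM in KO and 262, 230 and 227 CPM in WT. Its forskolin WT level of 0.251 CPM lies under that of 3 counts in the library (0.372 CPM). The size of its forskolin effect is therefore uncertain. Stat4, the transcription factor of this receptor, was lower by -1.86 ± 0.06 with forskolin and by -2.41 ± 0.06 in activated cells (difference 0.55 ± 0.09, adjusted p = 0.000115).

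Ifngr1, the ligand-binding chain of the interferon gamma receptor, stood at 92.1, 89.4 and 98.1 CPM in forskolin-treated KO against 1163, 1150 and 1196 CPM in WT. In activated cells it stood at 17.1, 17.9 and 14.3 CPM in KO against 28.6, 29.8 and 26.2 CPM in WT. It was lower in both states, and by far more with forskolin (difference -2.87 ± 0.09, adjusted p = 4.09e-13). Tbx21, which encodes T-bet, was near 0 with forskolin in both genotypes and had a difference of 0.13 ± 0.56 (adjusted p = 0.917). Its activated effect of 0.12 passed with the replicate block (adjusted p = 0.0375). Ifng, at 10.5, 7.08 and 8.12 CPM in activated KO against 31.7, 15.3 and 17.7 CPM in WT, was lower there (-1.33 ± 0.26, adjusted p = 0.00177), though not when the tables were fitted separately (adjusted p = 0.0541). Its forskolin levels of at most 0.180 CPM in KO and 0.324 CPM in WT were too low for the difference to be read (0.30 ± 1.95, adjusted p = 0.943).

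Genes of T cell receptor signalling split. Of 33 tested, 11 were lower and 12 higher with forskolin, 12 were lower and 10 higher in activated cells, and 6 were opposite genes, against 1 of 33 in a fit of all 18 RNA libraries. Over all tested genes 14.1% were lower and 15.5% higher with forskolin, 13.6% lower and 10.1% higher in activated cells, and 2.61% opposite. With upper-quartile scaling the activated calls were 8 lower and 13 higher. Ubash3b, a phosphatase that limits receptor signalling, was higher with forskolin (0.91 ± 0.09) and lower in activated cells (-0.99 ± 0.07). Rasgrp1, which links receptor signals to RAS, stood at 532, 491 and 546 CPM in forskolin-treated KO against 258, 237 and 278 CPM in WT, and at 109, 108 and 111 CPM in activated KO and 114, 110 and 111 CPM in WT. Cd5 and Cd6, coreceptors that dampen the signal, were opposite genes, by 0.29 ± 0.04 and 0.35 ± 0.04 with forskolin and by -0.65 ± 0.04 and -0.47 ± 0.04 in activated cells.

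The list of naive and quiescence genes had 32 tested members. With forskolin 10 fell and 6 rose in KO, and in the activated state 15 fell and 5 rose. Of all tested genes 14.1% fell and 15.5% rose with forskolin, and 13.6% fell and 10.1% rose in activated cells. The difference was above 0 for 13 and below 0 for 4, beside 13.9% and 10.3% of all tested genes. Ccr7, the lymph node homing receptor, stood at 376, 374 and 379 CPM in forskolin-treated KO against 611, 676 and 588 CPM in WT, and at 253, 237 and 243 CPM in activated KO against 1463, 1334 and 1443 CPM in WT (difference 1.80 ± 0.07, adjusted p = 1.73e-12). Satb1, a chromatin organiser, had effects of -1.05 ± 0.06 and -2.38 ± 0.07. Klf3, a transcription factor of quiescence, was an opposite gene, at 158, 163 and 158 CPM in forskolin-treated KO against 216, 216 and 216 CPM in WT, and at 26.8, 27.4 and 25.9 CPM in activated KO against 17.1, 18.3 and 18.7 CPM in WT.

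Interferon-stimulated genes rose in forskolin-treated KO cells in part. Of 37 tested, 13 were higher with forskolin, 3 were higher and 1 lower in activated cells, and 10 had a called difference above 0. The shares over all tested genes were 15.5%, 10.1%, 13.6% and 13.9%, in that order. With the replicate block 17 were higher with forskolin, 18 lower and 6 higher in activated cells, and 21 had a called difference. Gbp4, a guanylate-binding protein, was higher in both states (1.20 ± 0.06 and 0.49 ± 0.06). Iigp1, an immunity-related GTPase, stood at 47.6, 47.4 and 38.9 CPM in forskolin-treated KO against 10.9, 12.7 and 15.8 CPM in WT, and at 252, 269 and 291 CPM in activated KO and 286, 309 and 305 CPM in WT, of which only the forskolin groups passed. Genes of this family have near-identical copies that can share reads.

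**Figure D4:**
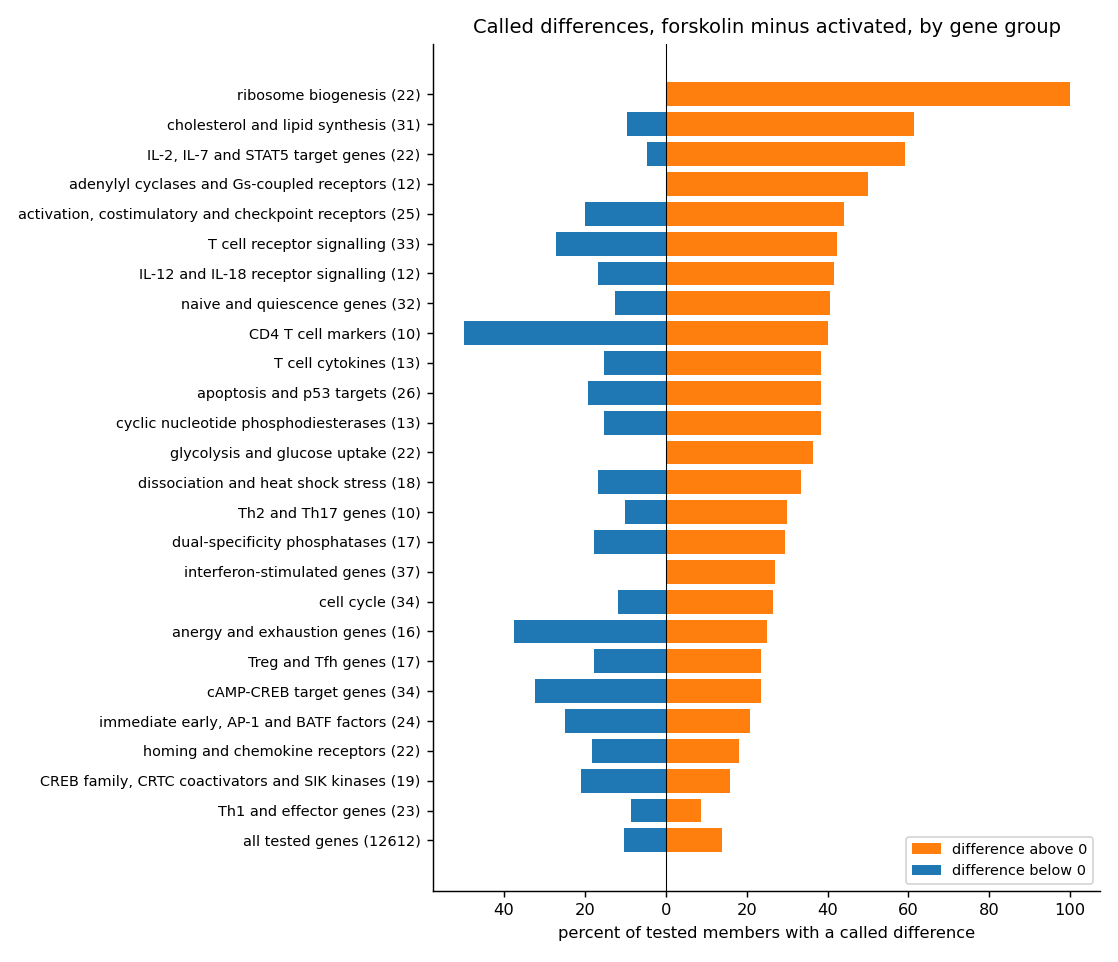
Percent of tested members of each gene group (rows, number tested in brackets) whose difference of genotype effects, forskolin minus activated, was called above 0 (orange, right) or below 0 (blue, left); the bottom row gives all 12612 tested genes. Ribosome biogenesis stands at 22 of 22 above 0, and cholesterol synthesis and STAT5 targets at 19 of 31 and 13 of 22.

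Open chromatin offers a readout that the RNA rule did not use, for activated cells only. In the authors' deposited table, 5138 of 110808 ATAC sites were lower in activated KO cells at their FDR of 0.05 (4.64%), and 575 were higher (0.519%). In naive cells 19 sites passed in either direction (0.0171%). A site was tied to a gene within 10 kb of its RefSeq span. Of 12111 tested genes with at least 1 site, 15.7% had a lower site. The share was 31.7% (140 of 441) for activated-restricted genes that were lower and 10.6% (36 of 340) for those that were higher. Opposite genes that were lower in activated cells had a share of 30.7% (63 of 205), and those that were higher there had 13.6% (16 of 118). For forskolin-restricted genes the share was 15.1% among lower and 16.6% among higher ones, near that of all genes. Genes lower in both states had 49.2% (31 of 63) where the activated effect was larger and 28.6% (32 of 112) where the forskolin effect was larger. Gene length and number of sites differ between genes and were not accounted for in these shares.

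**Figure D5:**
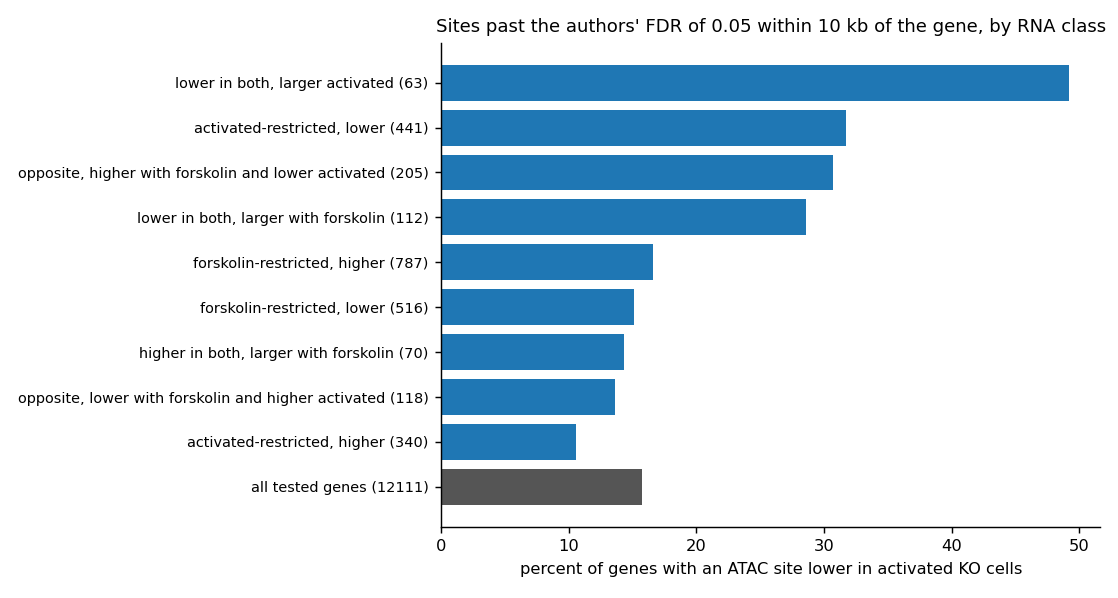
Percent of genes in each RNA class (rows, genes with at least 1 site in brackets) that had an ATAC site lower in activated KO cells within 10 kb, at the authors' FDR of 0.05; the grey bar is all tested genes. Classes with lower RNA in activated KO cells stand at 28.6% to 49.2%, and forskolin-restricted classes stand near the 15.7% of all tested genes.

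Sites at single genes are given for Adk, Vps37b, Dusp10, Osbpl3 and Klf3. At Adk, whose RNA did not pass the test in activated cells, the authors' deposited table lists 3 lower sites inside the gene. The site at chr14:21302790-21303190 (mm10) held 13, 8 and 11 counts in activated KO against 124, 95 and 107 counts in WT (log2 -3.35 by the authors' fold, which follows the deposited counts with no further scaling to depth and is given here as KO over WT, authors' FDR 2.66e-10). Whether the counts had been scaled before deposit is not given in the sources used here. At Vps37b the site at chr5:124035803-124036203, outside the gene, held 19, 14 and 14 counts in KO against 328, 166 and 154 counts in WT. At Dusp10 the site at chr1:184084924-184085324 held 28, 22 and 19 counts in KO against 573, 350 and 338 counts in WT. These 3 genes thus had sites with far fewer counts in activated KO cells, while their RNA effect was larger with forskolin. The lower sites were 3 of 24 at Adk, 1 of 15 at Vps37b and 3 of 15 at Dusp10. Other genes with a larger RNA effect with forskolin varied. Myb had 1 lower site of 8 and Pmepa1 had 1 of 11. None was lower among 12 sites at Rnf125, 4 at Odc1, 21 at Pde7a and 9 at Ifngr1. At Osbpl3, an opposite gene, 7 of 23 sites were lower, among them chr6:50362729-50363129 inside the gene with 22, 19 and 12 counts in KO against 194, 161 and 174 counts in WT. At Klf3, whose RNA was higher in activated KO cells, a site near the gene at chr5:64801297-64801697 was lower (53, 54 and 49 counts in KO against 228, 213 and 205 counts in WT). The sites that overlap the 6 promoters printed above had an authors' FDR of 0.352 to 1.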

How the data were processed

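The authors deposited raw RNA read counts per gene in 2 tables, 1 for forskolin-treated cells and 1 for naive and activated cells, with mm10 named in the submitters' processing notes and the aligner, counter and strand setting not given in the sources used here. The table of naive and activated cells also held 1314 rows without a gene symbol, 0.128 to 0.159% of counts, which were left out. The authors also deposited ATAC counts per site with their log2 fold and FDR (an adjusted p-value), which are used as deposited, with the sign of the log2 fold turned to KO over WT. RNA counts were scaled by TMM inside each table and fitted together over 12 libraries with edgeR 4.0.16 quasi-likelihood tests in R 4.3.3 (limma 3.58.1, DESeq2 1.42.0 as alternatives), with Benjamini-Hochberg adjustment over all 12612 genes and a threshold of 0.05. SE is an approximate standard error, taken as the size of the log2 value over the square root of its quasi-likelihood F statistic. It is unreliable where counts are low. Some genes are not reported here. Levels are CPM from those scaled counts. Genes were named by a rule that took a fixed set of PKA, CREB and IL-12 genes, then, for each direction of the opposite and restricted classes, the 6 with the largest difference among genes with at least 5 CPM in the higher genotype group of both states and no overlap of KO and WT libraries in the states called. Sex-linked genes, antigen receptor segments and gene models with no name were left out. It then took the 3 members with the smallest p of the difference from each list with at least 3 called differences. Other genes with values, among them Fosl2 and those of the closing observations, were chosen after their values were seen where this rule does not name them. The members, gene lists and tests were chosen with earlier results of these data known. KO and WT libraries of the same number deviated together (correlations 0.207, 0.147 and 0.396 with forskolin, and 0.593, 0.292 and 0.268 in activated cells). These were all over 0.1, and were taken as pairs on that ground alone, since the labels name no shared litter or day. In activated cells replicates 2 and 3 were not told apart (KO 2 with WT 3 0.316, KO 3 with WT 2 0.241). A fit with the replicate number as a block was run beside the unblocked one. On simulated counts with the same 12612 genes, the difference test recovered 39 of 100 genes changed by 0.5 (log2) and 62 of 100 changed by 1, with 6 false calls. No other genes were changed there, whereas the test called 24.2% of genes in the data. The simulation also held no pairing of replicates. Its rates therefore need not hold for the data. Alternatives were other scalings, filters, tools, thresholds and each library left out.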

Additional observations from a re-analysis of the deposited data

Results flagged for a closer look

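The genotype effect of 101 named genes differed between forskolin-treated and activated cells by the edgeR test of the difference itself, at an adjusted p under 0.05. Values below are that difference on the log2 scale, forskolin minus activated. Most of these genes were named for a large or a called difference, so their number is set by the naming rule. Groups of 3 libraries were not examined for single libraries that stand apart gene by gene. The sizes for Il12rb1, Osbpl3 and Ntrk3 rest on levels near or under 3 counts in at least 1 library. Other genes listed below, such as Prkar1b, have no levels given here, and their sizes may also rest on low counts. Of 9 tested genes of PKA subunits and inhibitors, 7 passed the filter on low counts in each table alone. The difference of Irf4 was at the threshold (adjusted p = 0.0467). It lost its call with upper-quartile scaling, no filter on low counts, limma-voom (adjusted p = 0.307) or all 18 RNA libraries (adjusted p = 0.07). It did so too without forskolin WT replicate 1 or 3, forskolin KO replicate 1 or 2 or activated KO replicate 1, 2 or 3 (adjusted p 0.0628 to 0.0994). That of Cxcr4 was lost in the edgeR fit of all 18 RNA libraries (adjusted p = 0.21).

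The difference was at or below -1 for Myb (-3.83), Vps37b (-3.34), Ifngr1 (-2.87), Abcb9 (-2.72), Pmepa1 (-2.65), Rnf125 (-2.32), Nr4a3 (-2.25), Il18r1 (-2.20), Odc1 (-2.13), Dusp10 (-2.12), Pdk2 (-2.03), Cenpa (-1.93), Adk (-1.92), Col27a1 (-1.82), Sik1 (-1.82), Gimap1os (-1.68), Pfn2 (-1.62), Sytl1 (-1.56), Ift74 (-1.55), Snx9 (-1.53), Ramp1 (-1.53), Crem (-1.36), Frmd4a (-1.29), Nr4a1 (-1.28), Ltb (-1.21), Cxcr4 (-1.21), Fasl (-1.18) and Klf3 (-1.0). It lay between -1 and 0 for Tox (-0.80), Pde7a (-0.76), Sesn1 (-0.52), Cd3e (-0.50), Il4ra (-0.46), Hdac5 (-0.46), Cd3d (-0.42), Prkar1a (-0.36) and Prkacb (-0.20).

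The difference lay between 0 and 1 for Selplg (0.33), Ikzf1 (0.38), Hsp90ab1 (0.40), Tgfb1 (0.41), Gata3 (0.47), Prkcq (0.51), Stat4 (0.55), Pgk1 (0.59), Pde3b (0.64), Hspd1 (0.65), Tpi1 (0.67), Ifi47 (0.70), Gbp4 (0.71), Dusp16 (0.71), Nop58 (0.77), Irf4 (0.77), Pde4d (0.78), Fas (0.80), Cd6 (0.82), Eno1 (0.84), Aen (0.88) and Cd5 (0.94). It was from 1 to under 2 for Rasgrp1 (1.05), Dusp22 (1.10), Adora2a (1.17), Tnfsf8 (1.22), Satb1 (1.33), Polr1b (1.35), Pim2 (1.55), E2f2 (1.65), Osm (1.66), Il12rb2 (1.77), Ccr7 (1.80), Bhlhe40 (1.82), Sqle (1.86), Rrp12 (1.86), Myc (1.87), Jun (1.88), Basp1 (1.88), Ubash3b (1.90), Iigp1 (1.90), Socs3 (1.94) and Ndrg1 (1.95). It was 2 or more for Prkaca (2.05), Adcy6 (2.06), Idi1 (2.12), Serpinb9 (2.17), Nrp1 (2.38), Cish (2.40), Anxa2 (2.56), Gpr65 (2.59), Il12rb1 (2.63), Cdk6 (2.80), Il2ra (2.94), Map3k8 (2.97), Fsd1l (2.99), Gvin2 (3.31), Prkar1b (3.42), Cacnb3 (3.42), Coro2a (3.5), Prag1 (3.53), Tent5a (4.20), Osbpl3 (5.04) and Ntrk3 (6.13).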

How the results depend on the processing

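The difference test called 3049 genes, the forskolin effect 3728 and the activated effect 2988. At an adjusted p of 0.01 the counts were 1846, 2458 and 1827, with 150 opposite and 456 activated-restricted genes. With a log2 size of at least 1 as well they were 593, 562 and 458, with 19 opposite, 104 activated-restricted and 214 forskolin-restricted genes. Opposite genes numbered 196 in a fit of all 18 RNA libraries and 569 with the replicate block. With each library left out in turn, the difference test called 2577 to 3177 genes, the forskolin effect 2996 to 4243 and the activated effect 2302 to 2980. Opposite genes then numbered 253 to 376, activated-restricted genes 601 to 749 and forskolin-restricted genes 1129 to 1464. The difference of Tbx21, 0.13 without passing the test, was -0.05 with limma-voom, and -0.16, -0.04, -0.08 and -0.23 without forskolin WT replicate 1, forskolin WT replicate 3, forskolin KO replicate 1 and forskolin KO replicate 2, and -0.23 to 0.76 over all libraries left out in turn. That of Ifng, 0.30 without passing, was -0.53 without forskolin KO replicate 3 and -0.08 without activated WT replicate 1, and -0.53 to 0.90 over all. Both genes were near the limit of detection with forskolin. Among the named genes, the replicate block (the pairing of same-numbered libraries) also gave activated calls to Aen (0.15, edgeR adjusted p = 0.0272) and Hspd1 (-0.11, adjusted p = 0.00765), and beyond these and the genes given with a block value above it changed no other call of a gene reported here. The cause of the other changes was not tested.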

Other observations

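Genes of the GIMAP family, GTPases of lymphocyte survival, were chosen here after their values were seen. Of 9 tested, counting the antisense transcript Gimap1os, 9 were lower in forskolin-treated KO cells and 6 were higher in activated KO cells, and these 6 were opposite genes. Of all tested genes 14.1% were lower with forskolin, 10.1% higher in activated cells and 2.61% opposite. Reads of Gimap1os and Gimap1 cannot be told apart. Their number was 8 without activated WT replicate 1, 5 to 6 without any other single library, and 0 when a log2 size of at least 1 was asked for. Gimap5 had a forskolin effect of -0.96 and Gimap6 one of -0.97. The genes lie side by side on chromosome 6, and reads can be shared between neighbours and copies.

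On chromosome 18, Gm4951, Gm4841, F830016B08Rik and Iigp1 lie next to each other and were also chosen after their values were seen. Their means were 11.3, 6.66, 18.2 and 44.6 CPM in forskolin-treated KO and 0.129, 0.564, 0.532 and 13.1 CPM in WT. For Gm4951 the WT mean lies under the level of 3 counts in a library (0.322 to 0.391 CPM), so its fitted effect is not given. The forskolin effects of Gm4841, F830016B08Rik and Iigp1 were 3.54 ± 0.54, 5.08 ± 0.51 and 1.75 ± 0.12, and their differences were 3.23, 4.43 and 1.90, called by edgeR. Of 13 tested genes from 60 to 61 Mb of the chromosome, 7 were higher and 2 lower with forskolin, beside 15.5% and 14.1% of all tested genes. The 7 include Gm4951, Gm4841, F830016B08Rik and Iigp1, so this count is partly set by their choice. The other higher ones were Ndst1 (0.26), Tcof1 (0.34) and Camk2a (1.04), and the lower ones were Smim3 (-1.21) and Dctn4 (-0.43). Near-identical copies in this family can share reads.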
